A study of Mus musculus with 8 samples.

Results

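The comparison described here is that of mouse ESCs of the N33 line, from the C57BL/6 strain (C57BL/6J in the study's methods), grown with and without a feeder layer in the presence of serum and LIF. It holds 4 of the 8 RNA-seq samples of the series, 2 grown on feeders (F) and 2 grown on gelatin (−F), chosen by their labels. Both groups received 20% fetal bovine serum and 1000 U/ml LIF, and neither received the inhibitors CHIR99021 and PD0325901. The feeders were mouse embryonic fibroblasts (MEFs) whose division had been stopped with mitomycin C. By the protocol in the labels, cells from feeder cultures were taken off the feeders 2 times by their weaker adherence to the dish before RNA was extracted, a step not described for gelatin cultures, so that the presence of feeders and this handling cannot be told apart. The remaining 4 samples, F2i (feeders, serum and both inhibitors) and NB2i (N2B27 medium with both inhibitors and LIF, without serum or feeders), are used where they help to place a gene. All samples come from a single line, and the study's methods call the 2 samples of a group biological replicates. Neither they nor the labels say whether these were separate cultures, so p-values measure the spread between these samples only.

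Feeders are a layer of non-dividing fibroblasts that gives ESCs a surface of extracellular matrix and a supply of secreted factors. LIF acts through its receptor and STAT3 to hold mouse ESCs in self-renewal, and serum supplies BMP, which induces the Id genes. Naive ESCs express a set of transcription factors such as Nanog, Esrrb, Klf2, Klf4 and Tbx3, while cells that leave this state take up genes of the formative epiblast such as Otx2 and Dnmt3b. Fibroblasts in turn are marked by fibrillar collagens, small proteoglycans such as decorin and biglycan, and the transcription factor Prrx1. A transcript that is found with feeders and not without them can therefore come from ESCs or from fibroblasts carried over with them, and in bulk RNA more cells of a type and more RNA per cell cannot be told apart.

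To separate these cases, genes were divided by their level in the −F samples. A gene at 1 FPKM (the reads of a gene relative to the length of its transcript and the size of the library) or more in both −F samples was taken as expressed without feeders, and a gene under 0.1 FPKM in both as absent there. Of 20278 genes in the files, 11739 were expressed in −F, 4213 were absent and 4326 lay between. Expected counts, the reads assigned to each gene by estimate, summed to between 20129641 and 20664488 in the 8 samples. Genes that reached 10 counts in 2 or more samples, 15287 in all, were compared by quasi-likelihood in edgeR, and p-values given as adjusted are Benjamini-Hochberg values over all of them. In what follows a gene rose or fell if its adjusted p was under 0.05, and was called if it also changed by at least 2-fold. The coefficient of variation between replicates beyond counting error, as a common edgeR estimate for all genes and conditions, was 3.254%. Small changes therefore passed the test, while for a single value the smallest two-sided p of an exact permutation test was 0.3333 with 2 samples in each group.

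Most of the genes called higher with feeders did not reach 1 FPKM in both −F samples, but only 276 of the 855 were absent there. Of all 15287 genes tested, 7.24% were called, 5.59% higher and 1.65% lower in F. Among the 11682 tested genes expressed in −F, 162 (1.39%) were called higher and 111 (0.95%) lower. Among the 3097 genes between the limits, 417 were called higher and 141 lower. Of the 508 absent genes that passed the filter on low counts, 276 were called higher and 0 lower. This last direction was fixed by the choice of the class, since a gene near 0 in −F can pass the filter only through another group and cannot fall. The other absent genes had too few counts to be tested. In reads these genes were few. The 276 absent genes held 0.00308% and 0.00301% of counts in the −F samples and 0.0499% and 0.0511% in the F samples. The 162 expressed genes held 0.322% and 0.323% in −F and 1.09% and 1.10% in F, while all 855 genes called higher held 0.372% and 0.373% in −F and 1.46% and 1.48% in F.

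**Figure D1:**
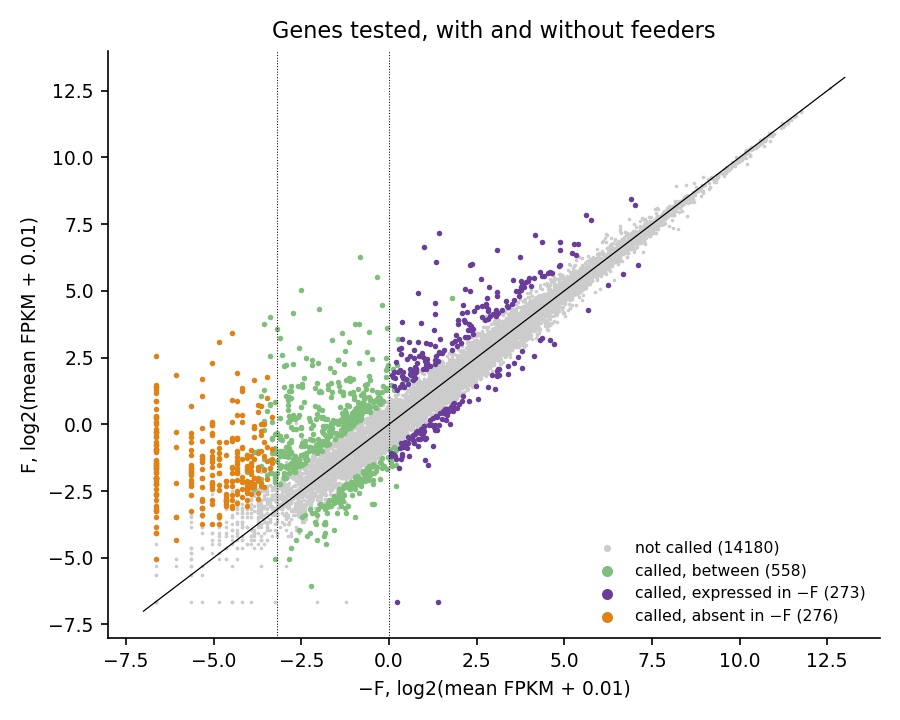
Each point is a tested gene, with its mean FPKM in the 2 −F samples on the horizontal axis and in the 2 F samples on the vertical axis, both as log2 after adding 0.01. Dotted lines mark 0.1 and 1 FPKM in −F and the diagonal marks equal levels. The 276 called genes absent in −F all lie above the diagonal, while the called genes between the limits (417 higher, 141 lower) and those expressed in −F (162 higher, 111 lower) lie on both sides.

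The split by −F uses values of the comparison itself, so it was repeated with NB2i, which has no feeders and no sample in common with it. Of 11268 tested genes expressed at 1 FPKM or more in both NB2i samples, 205 were called higher with feeders and 52 lower. Of 965 genes absent in NB2i, 348 were called higher and 72 lower. Genes expressed in both −F and NB2i numbered 10721, of which 118 were called higher and 46 lower. These are the genes whose transcripts were present in both feeder-free cultures. At the other end, 295 tested genes were absent in both, and 202 of them were called higher with feeders. Such genes could pass the filter only through F or F2i, so this share and its direction were set by the choice of the class. The rises also covered the range of levels unevenly. Of 3205 expressed genes with a mean of 1 to 5 FPKM in −F, 3.00% were called higher and 2.62% lower, whereas of 742 genes at 100 FPKM or more 0.27% were called in each direction.

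Fibroblast genes were a large group among the rises. Of 35 fibroblast and stroma markers, all 35 were tested, 31 were called higher and 0 lower, against 5.59% called higher among all genes, and their median log2 fold change was 4.15 (4.14 with genes at 0 in −F set at their lower bound). The median over all expressed genes was −0.02. Only 8 of the 35 were absent in −F, and the direction of these was set by the choice of the class. Another 14 were at 1 FPKM or more there, and 10 of these 14 were called higher, against 1.39% of all such genes. The summed level of the list was 263 and 257 FPKM in −F, 847 and 877 FPKM in F, 1895 and 1872 FPKM in F2i, and 849 and 824 FPKM in NB2i.

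Collagens and proteoglycans of the matrix were among the genes with large rises. Col1a1, on chromosome 11 from 94936224 to 94953042 (GRCm38, the assembly of mm10), was at 2.59 and 2.47 FPKM in −F and at 66.0 and 69.6 FPKM in F, a log2 fold change of 4.77 (SE 0.06, adjusted p = 7.86e-24). Col1a2, which encodes the partner chain of type I collagen, was at 0.84 and 0.72 FPKM in −F and at 44.7 and 47.5 FPKM in F. Col3a1, the chain of type III collagen, was at 0.10 and 0.05 FPKM in −F and at 13.2 and 14.1 FPKM in F. The groups did not overlap for any of the 3, and replicates lay close together beside the distance between groups. Biglycan (Bgn), a matrix proteoglycan, was at 1.85 and 2.13 FPKM in −F and at 97.5 and 101 FPKM in F (log2 fold change 5.65, SE 0.07, adjusted p = 7.86e-24). Fbln2, a fibulin of the matrix, was at 1.69 and 1.84 FPKM in −F and at 29.2 and 31.9 FPKM in F. Thy1, a surface protein of fibroblasts, rose 7.63-fold, from 4.45 and 4.51 FPKM to 33.7 FPKM in both F samples.

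A few markers moved less, some of them at a high level in −F. Fibronectin (Fn1) was at 98.6 and 95.8 FPKM in −F and at 170 and 180 FPKM in F, a rise of 1.81-fold. Sparc, a matrix-binding glycoprotein, was at 99.2 and 95.1 FPKM in −F and at 160 and 161 FPKM in F, a rise of 1.68-fold. Both were higher still in NB2i, with 358 and 334 FPKM for Fn1 and 456 and 457 FPKM for Sparc, where no feeders were present. The gelatinase Mmp2 was at 9.92 and 9.17 FPKM in −F and at 9.36 and 9.23 FPKM in F (adjusted p = 0.88). Twist1, a mesenchymal transcription factor, was at 2.45 and 2.63 FPKM in −F and at 2.65 and 3.14 FPKM in F (adjusted p = 0.333). These were the only 2 of the 35 markers that did not pass the test.

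**Figure D2:**
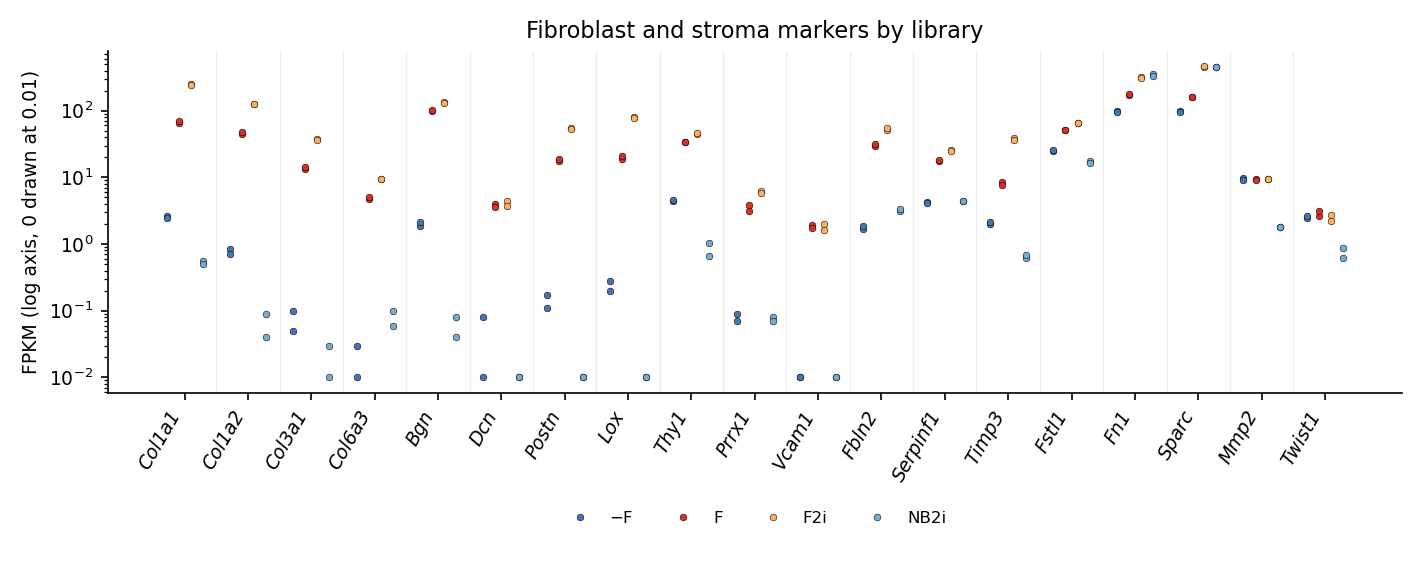
FPKM of 19 of the 35 fibroblast and stroma markers in each of the 8 libraries, on a log axis with 0 drawn at 0.01. For Col1a1, Col1a2, Col3a1, Bgn, Postn and Lox the F and F2i points lie more than 10-fold above the −F points, and Fn1 and Sparc are high in all libraries, those without feeders included.

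Among genes absent in −F, those with the highest means in F included Actg2, Lyz2, Rps27rt, Col6a3, Dcn, Prrx1, Tm4sf1, Osr2 and Sprr2k. Actg2, the smooth muscle gamma-actin, had 2 counts in the 2 −F samples together and 573 in F, and was at 10.7 and 10.4 FPKM in F. Corrected for library size, its counts were 292 times those in −F, with an exact 95% interval for counting error from 80.4 to 2410. Col6a3, a chain of the type VI collagen of fibroblast matrix, was at 0.01 and 0.03 FPKM in −F and at 4.74 and 4.99 FPKM in F (log2 fold change 7.86, SE 0.17, adjusted p = 2.39e-19). Decorin (Dcn) had 3 counts in −F and 290 in F, where it was at 3.95 and 3.54 FPKM. Prrx1, a transcription factor of limb and connective tissue mesenchyme, was at 0.09 and 0.07 FPKM in −F and at 3.09 and 3.82 FPKM in F. Osr2, another mesenchymal transcription factor, was at 0.06 FPKM in both −F samples and at 2.87 and 3.37 FPKM in F. For Sprr2k, with 0 counts in −F, the level in F was at least 23.4-fold higher, taking 3 counts over both −F samples as the limit that a count of 0 allows. Vcam1, an adhesion molecule of stromal cells also at 0 in −F, was at least 87.2-fold higher by the same measure.

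Rps27rt is uncertain among these. It was at 11.8 FPKM in the first F sample and 0 in the second, so that the groups overlap, and as a retrotransposed copy of Rps27 it can share reads with its parent gene. It passed the test neither with DESeq2 nor with either −F sample left out, and without the first F sample it had too few counts to be tested.

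The spread of fibroblast genes between F samples and between feeder conditions was close to that of other genes. Over the 31 fibroblast markers called higher, the second F sample differed from the first by a median of 0.05 on the log2 scale, with an SD of 0.17 across genes. Between F2i and F, the 2 feeder conditions, the same 31 genes differed by a median of 0.83, with an SD of 0.72 and a range from −0.44 (Islr, a secreted leucine-rich protein) to 2.44 (Ogn, osteoglycin). Over 11680 genes expressed in −F, the SD was 0.17 between the F samples and 0.62 between F2i and F, with a median of −0.02 for the latter. Col1a1 was at 248 and 239 FPKM in F2i against 66.0 and 69.6 FPKM in F, whereas Dcn was at 4.46 and 3.67 FPKM in F2i. Thus fibroblast genes did not keep a fixed proportion to each other between the feeder conditions. Mmp3, stromelysin, was at 0.72 and 0.73 FPKM in F and at 0.03 FPKM in the first F2i sample, the lowest ratio among 114 absent genes with 20 or more counts in each F sample.

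Markers of cells other than fibroblasts were also examined. Of 14 myogenic and vascular wall markers, 11 were tested, 4 were called higher and 1 lower, against 5.59% and 1.65% of all genes. Acta2, smooth muscle alpha-actin, was at 4.89 and 4.96 FPKM in −F and at 62.4 and 64.0 FPKM in F (log2 fold change 3.71, SE 0.06, adjusted p = 4.70e-22). Tagln, an actin-binding protein of the same cells, was at 30.3 and 29.1 FPKM in −F and at 93.6 and 91.4 FPKM in F. Of 14 blood and macrophage markers only 5 could be tested, of which 2 were called higher and 1 lower. Of the 5, 2 were absent in −F and could pass the filter only through another group. Lysozyme 2 (Lyz2), an enzyme of macrophages and neutrophils, had 1 count in −F and 362 in F, at 8.63 and 8.44 FPKM in F and 0.61 and 1.00 FPKM in F2i. Adgre1, the macrophage marker F4/80, was at 0 in −F and at 0.35 and 0.31 FPKM in F. The macrophage receptor Csf1r went the other way, from 0.31 and 0.41 FPKM to 0.15 FPKM in both F samples, and the pan-leukocyte gene Ptprc was at 0.08 FPKM in both F samples and not tested. Over the whole list the summed level was 7.26 and 5.99 FPKM in −F and 20.4 and 19.4 FPKM in F, with Cd48 at 0 in all 4, and in NB2i, without feeders, it was 18.5 and 19.5 FPKM. Cd68, a lysosomal protein of macrophages, made up most of the latter, with 17.75 and 19.07 FPKM in NB2i against 6.00 and 5.30 FPKM in −F and 9.21 and 8.88 FPKM in F. Of 8 neural markers tested, 1 was called higher (Pax6, an eye and forebrain transcription factor) and 0 lower, against the same 5.59% and 1.65% of all genes.

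Feeders are known as a source of secreted factors, and 12 of 22 tested growth factors and cytokines were called higher and 0 lower, against 5.59% and 1.65% of all genes. Of these 22, 8 were absent in −F and could pass the filter only through another group, and of the 9 expressed in −F 1 was called higher. Csf1, the growth factor of macrophages, was expressed in −F at 2.37 and 2.11 FPKM and rose 3.83-fold to 7.93 and 8.21 FPKM in F. The chemokines Ccl2 and Cxcl1 were at 0 in both −F samples. Ccl2 was at 2.21 and 2.67 FPKM in F, at least 26.5-fold higher, and Cxcl1 at 1.88 and 2.58 FPKM, at least 29.2-fold higher. Tgfb3, a TGF-beta ligand, was at 0.41 and 0.30 FPKM in −F and at 3.30 and 2.76 FPKM in F. Inhba, which encodes the subunit of activin A, was at 0.06 and 0.16 FPKM in −F and at 5.59 and 6.60 FPKM in F (log2 fold change 5.73, SE 0.28, adjusted p = 3.51e-13). Igf2, the imprinted insulin-like growth factor, fell by 0.34 on the log2 scale from 55.0 and 50.6 FPKM.

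Of 20 genes of the LIF pathway, all tested, 4 were called higher and 0 lower, against 5.59% and 1.65% of all genes. Absent in −F were 2 of the 20, Il6 and Osmr, whose direction was set by the choice of the class. Of the 15 expressed in −F, 1 was called higher, against 1.39% of all such genes. Lif itself was at 2.44 and 2.16 FPKM in −F and at 3.63 and 3.16 FPKM in F, a rise of 1.49-fold (adjusted p = 0.000109). The receptor chains Lifr and Il6st rose by 0.15 and 0.40 on the log2 scale, and Stat3, the transcription factor below them, by 0.53 (SE 0.04, adjusted p = 3.86e-09). The feedback inhibitor Socs3, a direct STAT3 target, was at 56.6 and 54.3 FPKM in −F and at 53 and 55.6 FPKM in F (adjusted p = 0.941). Il6, a cytokine that signals through Il6st, was at 0 in −F and at 1.54 and 0.87 FPKM in F. Osmr, the receptor chain of oncostatin M, was at 0.09 and 0.04 FPKM in −F and at 1.66 and 1.61 FPKM in F.

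In the BMP pathway, secreted inhibitors and 3 of 4 Id genes rose, while Id1 and the ligand Bmp4 fell. Of 22 genes tested, 7 were called higher and 0 lower, against 5.59% and 1.65% of all genes. Of the 14 expressed in −F, 3 were called higher, against 1.39% of all such genes. Another 2 of the 22 were absent in −F, and their direction was set by the choice of the class. Gremlin 1 (Grem1), a secreted protein that binds BMPs, was absent in −F, with 1 count, and had 137 counts in F. Follistatin (Fst), which binds activin, was at 0.49 and 0.57 FPKM in −F and at 2.33 and 2.69 FPKM in F. The ligand Bmp4 fell from 10.8 and 9.28 FPKM to 7.69 and 8.04 FPKM. Among the Id genes, inhibitors of bHLH transcription factors, Id1 fell from 23.4 and 22.9 FPKM to 11.4 and 12 FPKM (log2 fold change −0.96, SE 0.10, adjusted p = 4.95e-08). Id3 rose from 13.8 and 12.2 FPKM to 32.6 and 31.4 FPKM (log2 fold change 1.32, SE 0.08, adjusted p = 3.57e-11). Id2 and Id4 rose as well, by 0.46 and 1.27 on the log2 scale. Thus the 4 Id genes did not move together.

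The largest rise among all genes expressed in −F that met the rule for naming was that of Fos. Fos encodes a subunit of the AP-1 transcription factor and belongs to the early response genes, which are transcribed within a short time of growth factor or stress signals through ERK and serum response factor (SRF). It lies on chromosome 12 from 85473890 to 85477274 and was at 2.48 and 2.90 FPKM in −F and at 147 and 144 FPKM in F (log2 fold change 5.78, SE 0.07, adjusted p = 5.60e-24). In F2i it was at 77.2 and 81.0 FPKM and in NB2i at 1.72 and 1.53 FPKM. Fos was thus high in the 4 feeder libraries and low in the 4 libraries without feeders, with no overlap.

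Several other early response genes rose with it. Of 18 genes on the list of ERK feedback and early response genes, 8 were called higher and 0 lower, against 5.59% and 1.65% of all genes, and 5 of the 15 expressed in −F were called higher, against 1.39% of all such genes. Fosb, a paralog of Fos, was at 0.47 and 0.65 FPKM in −F and at 78.8 and 76.9 FPKM in F (log2 fold change 7.13, SE 0.08, adjusted p = 3.68e-24). Egr1, a zinc finger transcription factor, was at 8.58 and 8.36 FPKM in −F and at 90.4 and 94.1 FPKM in F, and in F2i, with the MEK inhibitor, at 4 and 3.54 FPKM. Jun, the partner of Fos in AP-1, was at 6.10 and 6.12 FPKM in −F and at 43.0 and 43.8 FPKM in F. Junb, from the same family, rose 2.68-fold to 50.5 and 54.1 FPKM. Egr2 was at 0.13 and 0.10 FPKM in −F and at 4.71 and 4.40 FPKM in F. The phosphatases Dusp1 and Dusp5, which switch off MAP kinases, rose by 1.39 and 1.20 on the log2 scale. Outside the list, Ccnd2, the cyclin D2 of G1 phase, rose from 1.32 and 1.24 FPKM to 14.4 and 14.2 FPKM (log2 fold change 3.50, SE 0.07, adjusted p = 1.31e-19).

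Feedback genes that follow ERK activity over a longer time did not rise in the same way. Dusp6, the ERK phosphatase, was at 34.5 and 33.9 FPKM in −F and at 35.9 and 34.8 FPKM in F (adjusted p = 0.279). Spry4 was at 20.5 and 21.2 FPKM in −F and at 20.3 and 19.8 FPKM in F (adjusted p = 0.66). Etv4, an ETS factor induced by FGF signals, was at 52.8 and 52.2 FPKM in −F and at 53.5 and 51.3 FPKM in F (adjusted p = 0.781). Spry2 rose by 0.47 and Spred1 fell by 0.20 on the log2 scale. In F2i, with the MEK inhibitor PD0325901, Dusp6 was at 5.18 and 5.71 FPKM and Spry4 at 0.54 and 0.74 FPKM, while Spry2 was at 74.1 and 72.7 FPKM.

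**Figure D3:**
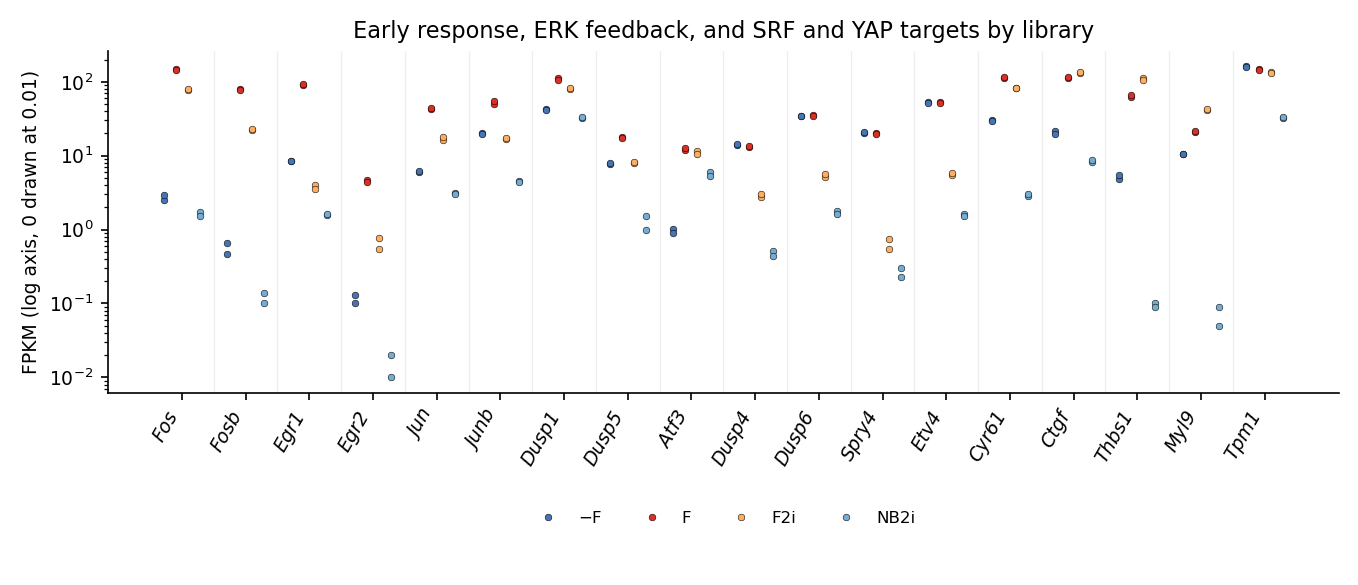
FPKM of early response genes, ERK feedback genes and targets of SRF and YAP in each of the 8 libraries, on a log axis with 0 drawn at 0.01. Fos, Fosb, Egr1, Egr2 and Jun are higher in F than in −F without overlap, Dusp4, Dusp6, Spry4 and Etv4 lie at like levels in F and −F, and Egr1 is lower in F2i than in F.

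Targets of SRF and of the coactivator YAP, which respond to the actin cytoskeleton and to adhesion, also rose in part. Of 17 genes, 8 were called higher and 0 lower, against 5.59% and 1.65% of all genes. Expressed in −F were 15 of the 17, and 7 of these 15 were called higher, against 1.39% of all such genes. Between F2i and NB2i, 16 of the 17 were called higher in F2i, against 13.3% of all genes. Whether these transcripts came from ESCs or from feeders was not tested. Thbs1, thrombospondin 1, was at 4.82 and 5.50 FPKM in −F and at 62.3 and 65.8 FPKM in F (log2 fold change 3.66, SE 0.06, adjusted p = 1.18e-21). The matricellular proteins Ctgf and Cyr61 rose 5.65-fold and 3.92-fold, to 113 and 115 FPKM and to 114 FPKM in both F samples. Srf itself was at 21.1 and 20.5 FPKM in −F and at 33.6 and 34.1 FPKM in F, a rise of 1.65-fold. Genes of the cytoskeleton on the list differed among themselves. Myl9, a myosin light chain, and Cald1, caldesmon, rose by 1.03 and 0.86 on the log2 scale, and Tpm2, a tropomyosin, did not pass the test (adjusted p = 0.821). Tpm1, another tropomyosin, was at 162 and 158 FPKM in −F and at 148 and 143 FPKM in F (adjusted p = 0.0955), and Flna, filamin A, at 71.9 and 82.5 FPKM in −F and at 80.9 and 81.8 FPKM in F (adjusted p = 0.141).

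SRF binds the CArG box, a run of A and T between a pair of C and a pair of G. The pattern is the same on both strands, though the letters of a single box need not be. Promoters of the early response and SRF or YAP lists were searched for it in the 250 bases before the start site as RefSeq gives it (GRCm38.p6). Of 26 genes with a promoter sequence, 6 held a box (23.1%), against 1.62% of 27025 genes in all, and 9 genes of the lists had no sequence. The lists hold known SRF targets, so a share above that of all genes was set by their choice. They were Dusp5, Egr2, Myl9, Acta1, Srf and Vcl. Of these, Dusp5, Egr2 and Myl9 were called higher, Srf and Vcl rose by 0.73 and 0.36 on the log2 scale, and Acta1, skeletal alpha-actin, fell by 0.47. Among 117 genes expressed in −F, called higher and with a promoter sequence, 5 held a box (4.27%). The stretches of 100 bases around the boxes of 4 genes that rose are shown so that the boxes can be read, in capitals, in their surroundings, each on the strand of its gene.
Srf, chr17:46556180-46556279, minus strand: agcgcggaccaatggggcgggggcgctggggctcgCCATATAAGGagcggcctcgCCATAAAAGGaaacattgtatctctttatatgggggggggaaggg
Dusp5, chr19:53529023-53529122, plus strand: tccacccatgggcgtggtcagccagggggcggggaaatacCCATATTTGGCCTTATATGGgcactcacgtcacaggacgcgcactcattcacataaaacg
Egr2, chr10:67537449-67537548, plus strand: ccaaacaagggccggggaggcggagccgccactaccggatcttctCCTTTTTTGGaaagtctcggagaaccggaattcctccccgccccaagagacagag
Myl9, chr2:156775258-156775357, plus strand: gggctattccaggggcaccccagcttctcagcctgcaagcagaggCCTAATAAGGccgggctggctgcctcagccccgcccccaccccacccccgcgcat
Srf and Dusp5 each held 2 boxes in this window and Egr2 and Myl9 a single box. A match of letters is a description of the sequence and does not show that SRF was bound.

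Enzymes and inhibitors that remodel matrix followed the matrix genes. Of 16 tested matrix proteases and inhibitors, 11 were called higher and 0 lower, against 5.59% and 1.65% of all genes. The 11 held 4 of the 9 expressed in −F, against 1.39% called higher among all such genes. Another 2 of the 16 were absent in −F and could pass the filter only through another group. The metalloprotease inhibitors Timp1, Timp2 and Timp3 rose by 1.20, 1.79 and 2.00 on the log2 scale. Integrin and laminin chains divided: of 21 tested, 5 were called higher and 0 lower, against the same 5.59% and 1.65%. The 5 (Itga1, Itga8, Itga11, Lama2 and Lama4) were all under 1 FPKM in both −F samples. Chains that ESCs hold at higher levels moved less, with Itga6 at 40.1 and 41.4 FPKM in −F and 38.5 and 40.9 FPKM in F (adjusted p = 0.787) and Itga3 falling by 0.60 on the log2 scale from 30.8 FPKM in both −F samples.

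Naive pluripotency factors were expressed in all samples, and 10 of 13 rose with feeders, 3 of them by at least 2-fold. Over all genes expressed in −F, 20.9% rose and 22.1% fell by the adjusted p alone. Klf4, a Krüppel-like factor downstream of LIF, was at 54.2 and 54.7 FPKM in −F and at 199 and 200.2 FPKM in F (log2 fold change 1.90, SE 0.04, adjusted p = 2.52e-19). Klf2, a related factor, was at 50.3 and 47.7 FPKM in −F and at 234 and 227 FPKM in F (log2 fold change 2.26, SE 0.05, adjusted p = 3.16e-19). Tbx3, a T-box factor of the same network, was at 6.70 and 7.22 FPKM in −F and at 26.6 and 27.3 FPKM in F. The 3 called factors were also well expressed in NB2i, where Klf4 was at 146 and 144 FPKM without feeders. Klf2 and Klf4 are also known to respond to growth and stress signals in fibroblasts, and their source in F was not tested.

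The other naive factors rose by less. Nr5a2, Tfcp2l1, Klf5 and Nr0b1 rose by 0.87, 0.78, 0.77 and 0.77 on the log2 scale, and Esrrb, Prdm14 and Nanog by 0.57, 0.52 and 0.45. Nanog was at 208 and 199 FPKM in −F and at 271 and 269 FPKM in F. Dppa3 (Stella) fell by 0.22, from 69.3 and 67.7 FPKM to 60.1 and 55.5 FPKM, and Gbx2 did not pass the test (adjusted p = 0.824). None of the 15 pluripotency genes shared by naive and primed cells was called, with 4 rising and 5 falling by the adjusted p alone.

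Genes of the formative and primed epiblast moved in both directions. Of 21 tested, 10 fell and 6 rose, against 18.5% and 21.7% of all genes, and 3 were called lower and 1 higher, against 1.65% and 5.59%. The difference between directions was not tested. Dnmt3b, a de novo DNA methyltransferase, was at 135 and 140 FPKM in −F and at 62.2 and 62.4 FPKM in F (log2 fold change −1.12, SE 0.04, adjusted p = 1.53e-15). Otx2, a homeobox factor of the epiblast, was at 13.3 and 12.4 FPKM in −F and at 5.60 and 5.86 FPKM in F (log2 fold change −1.14, SE 0.08, adjusted p = 2.20e-10). Dnmt3l and Pou3f1 fell by 0.71 and 0.62 on the log2 scale. Foxd3, a forkhead repressor, was called in the opposite direction, from 2.74 and 2.63 FPKM to 6.47 and 6.26 FPKM.

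Epithelial genes fell and mesenchymal regulators rose. Of 16 epithelial adhesion genes, all expressed in −F, 14 fell and 0 rose, against 22.1% and 20.9% of all such genes. Called lower were 4 of the 16, against 0.95%. The median log2 fold change of the 16 was −0.45 against −0.02 for all expressed genes. Cldn6, a claudin of tight junctions, was at 105 and 101 FPKM in −F and at 50.04 and 49.1 FPKM in F (log2 fold change −1.03, SE 0.05, adjusted p = 1.77e-13). The keratins Krt8, Krt18 and Krt19 fell by 0.92, 1.02 and 1.58 on the log2 scale, and Krt19 went from 19.4 and 16.1 FPKM to 5.94 and 5.84 FPKM. Dsp, desmoplakin of desmosomes, fell by 1.11. E-cadherin (Cdh1) was at 145 and 153 FPKM in −F and at 112 and 114 FPKM in F, a smaller fall of 0.38. The summed level of the 16 genes was 1041 and 1021 FPKM in −F and 761 and 767 FPKM in F.

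Of 12 mesenchymal regulators, 8 were called higher and 0 lower, against 5.59% and 1.65% of all genes. Only 6 of the 12 were expressed in −F, and 2 of these were called higher, against 1.39% of all such genes. Vim, the intermediate filament of mesenchymal cells, was at 19.8 and 16 FPKM in −F and at 137 and 139 FPKM in F (log2 fold change 2.97, SE 0.06, adjusted p = 7.70e-20), with 58.4 and 60.2 FPKM in NB2i. The repressors Zeb1 and Snai1 rose by 1.91 and 1.47 on the log2 scale, and S100a4, a fibroblast protein, had 2 counts in −F and 236 in F. The summed level of the fibroblast markers was 263 and 257 FPKM in −F and 847 and 877 FPKM in F, but also 849 and 824 FPKM in NB2i. Their median level was 0.42 and 0.49 FPKM in −F, 9.34 and 9.17 FPKM in F, and 0.09 and 0.10 FPKM in NB2i. The part of fibroblast RNA in the mesenchymal rises was not tested.

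**Figure D4:**
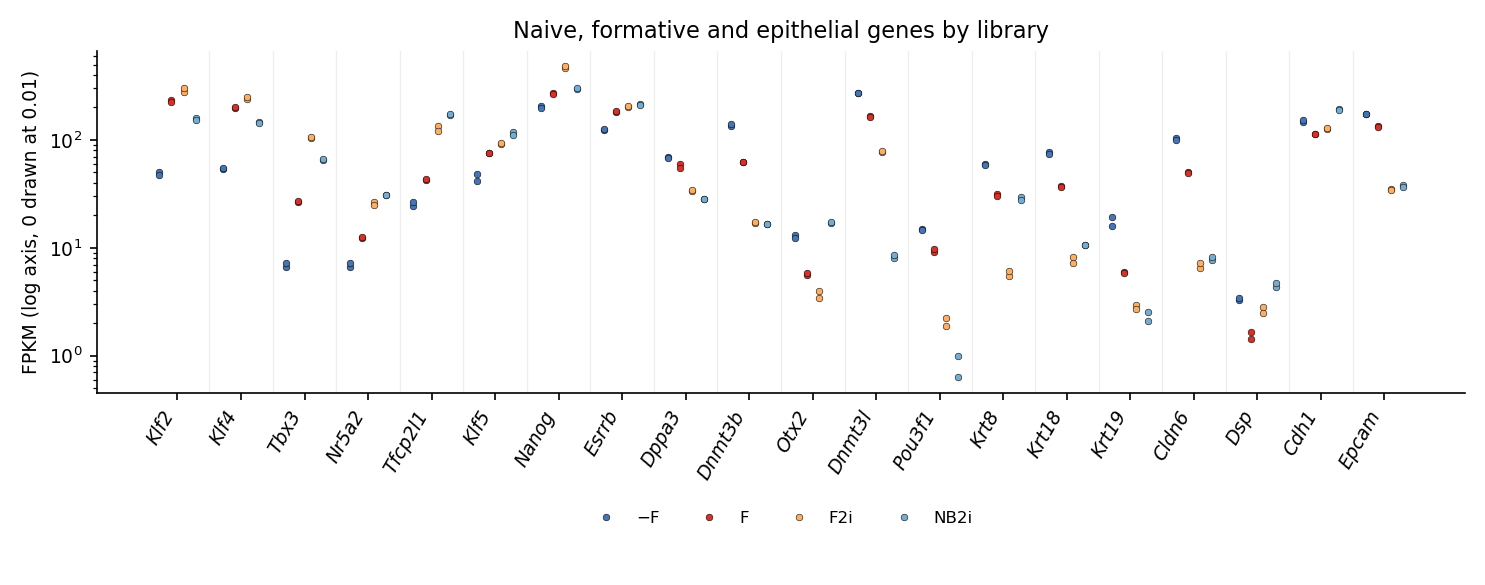
FPKM of naive factors, formative genes and epithelial genes in each of the 8 libraries, on a log axis. Klf2, Klf4 and Tbx3 are higher in F than in −F, Dnmt3b, Otx2, the keratins and Cldn6 are lower in F than in −F, and replicates of a group lie close together for each gene.

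The largest falls of expressed genes by the naming rule were those of Tmem54, Rab25, Pbld1, Vgf, Krt19, Cyp2e1, Tmem254b, Rn4.5s, Olig2 and Slc40a1. Rab25, a small GTPase of epithelial membrane traffic, was at 14.8 and 13.2 FPKM in −F and at 4.17 and 4.39 FPKM in F (log2 fold change −1.68, SE 0.12, adjusted p = 4.04e-10). Tmem54, a membrane protein, was at 7.93 and 8.23 FPKM in −F and at 2.16 and 2.77 FPKM in F. Olig2, a bHLH factor of the neural lineage, was at 24.8 and 23.6 FPKM in −F and at 9 and 8.93 FPKM in F (log2 fold change −1.41, SE 0.07, adjusted p = 1.88e-13). Vgf, a secreted neuropeptide precursor, and Slc40a1, the iron exporter ferroportin, fell by 1.58 and 1.27 on the log2 scale. None of these 10 reached a log2 fold change of −2, but genes under 5 FPKM in −F are left out by the rule. Among them, and chosen after their values were seen, Pla2g4b, a phospholipase A2, was at 2.15 and 3.10 FPKM in −F, with 418 counts, and at 0 in both F samples (adjusted p = 3.24e-09 by edgeR). Gm3317, a predicted gene, had 83 counts in −F and 0 in F (adjusted p = 2.98e-05 by edgeR). In F2i, also with feeders, Pla2g4b was at 0.58 and 1.16 FPKM and Gm3317 at 0. Whether reads of these genes were assigned to other entries in F was not tested.

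The value of several of these rests on a single library or on shared reads. Tmem254b was at 52.0 and 50.8 FPKM in −F and at 34.6 and 4.11 FPKM in F, its log2 fold change was −0.55 without the second F sample and −3.85 without the first, and its near copy Tmem254c went the other way, from 7.73 and 6.73 FPKM to 18.4 and 51.8 FPKM, so that reads may be divided differently between them. Cyp2e1 was at 14.2 and 6.67 FPKM in −F, and fell by 0.82 on the log2 scale without the first −F sample and by 1.91 without the second. Pbld1 was at 34.9 and 17.4 FPKM in −F and at 11 and 5.26 FPKM in F. Rn4.5s had 41 counts in −F and 15 in F and did not pass the test without the first F or the first −F sample.

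Counts in other signalling and stress lists are to be read against the 5.59% of all genes called higher and 1.65% lower. Among genes expressed in −F, 0 of 7 Wnt, 0 of 6 IGF, 3 of 12 Notch and 3 of 19 stress response genes were called higher. The share of all such genes was 1.39%. Each of these lists also held 1 tested gene absent in −F, whose direction was set by the choice of the class. Of 14 Wnt targets 3 were called higher and 0 lower, among them Cdx1 and Sp5, transcription factors that rose by 2.18 and 1.38 on the log2 scale. Of 14 genes of the Nodal and activin pathway Inhba alone was called, and Lefty1 and Lefty2, inhibitors of Nodal, rose by 0.45 and 0.81. Of 9 tested IGF binding proteins and their proteases, 3 were called higher and 0 lower, with Igfbp5 rising by 3.12. In the Notch pathway, 4 of 14 tested genes were called higher and 0 lower. The ligand Dll1 was at 1.38 and 1.21 FPKM in −F and at 9.25 and 8.93 FPKM in F (log2 fold change 2.83, SE 0.10, adjusted p = 1.17e-15). The ligand Jag1 and the target Hes1 rose by 1.62 and 1.40 on the log2 scale, whereas the ligands Dll3 and Jag2 fell by 0.81 and 0.52. Of 23 genes of the amino acid and integrated stress response, 5 were called higher and 0 lower. Atf4, the transcription factor of this response, was at 131 and 128 FPKM in −F and at 303 and 301 FPKM in F (log2 fold change 1.25, SE 0.04, adjusted p = 4.96e-16). Atf3, Ddit3 and Chac1 rose by 3.69, 1.45 and 2.00. Synthetic enzymes under ATF4 did not rise: Asns, asparagine synthetase, was at 204 and 203 FPKM in −F and at the same rounded values in F (adjusted p = 0.727), and Psat1 and Phgdh fell by 0.22 and 0.39.

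Noncoding RNAs of 2 regions moved strongly. Meg3, the maternally expressed RNA of the imprinted region on chromosome 12, was at 0.50 and 0.51 FPKM in −F and at 15.5 and 11.8 FPKM in F (log2 fold change 4.62, SE 0.14, adjusted p = 1.37e-16). Rian, a neighbour from the same region, was at 0.55 and 0.53 FPKM in −F and at 5.00 and 4.79 FPKM in F, and the paternally expressed Dlk1 rose 3.03-fold. In NB2i, without feeders, Meg3 was at 1.99 and 1.72 FPKM. H19 rose by 0.68, while Cdkn1c and Grb10 fell by 0.73 and 0.48, so that imprinted genes as a list did not share a direction. Of 21 imprinted genes, 6 were called higher and 0 lower, against 5.59% and 1.65% of all genes. On the X chromosome, Xist rose from 0.27 and 0.25 FPKM to 1.04 and 0.88 FPKM, and Tsix, which is transcribed across it from the opposite strand, fell from 1.35 and 1.20 FPKM to 0.44 and 0.41 FPKM. Ftx, a noncoding gene of the same region chosen here after its values were seen, fell by 1.36 on the log2 scale. The 2 antisense genes share sequence, and strand-specific counting is not stated, so their reads may be assigned to either. Transcripts of Y genes were found in all 8 libraries, with Eif2s3y at 25.2 and 23.9 FPKM in −F and at 21.9 and 22.5 FPKM in F.

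Among genes of rarer ESC states, many 2C and primitive endoderm genes rose from low levels. Counts of called genes here are to be read against 5.59% of all genes higher and 1.65% lower. By the adjusted p alone, 21.7% of all genes rose and 18.5% fell. Of 19 tested 2C genes, which mark a small share of ESCs that resemble cells of the early embryo, 18 were called higher, with a median log2 fold change of 4.38 (4.04 with genes at 0 in −F at their lower bound). Zscan4f, a zinc finger gene of this state, was at 0.55 and 0.53 FPKM in −F and at 14.0 and 12.9 FPKM in F. Only 1 of the 19 was at 1 FPKM or more in −F, and near-identical copies divide reads between them. Another 6 were absent in −F and could pass the filter only through another group. Of 14 tested primitive endoderm genes, 8 were called higher and 0 lower. Of the 14, 2 were absent in −F, so that their direction was set by the choice of the class. Of the 7 expressed in −F, 1 was called higher, against 1.39% of all such genes. Gata6, a factor of this lineage, was at 0.70 and 0.50 FPKM in −F and at 1.98 and 1.83 FPKM in F, and Dab2 rose 2.51-fold to 5.07 and 5.25 FPKM. Trophoblast genes went the other way in part, with 7 of 13 falling and 1 rising by the adjusted p. Of 18 tested germline genes, 1 was called higher, a share near that of all genes. It was Stra8, the retinoic acid target that precedes meiosis.

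Of 24 tested genes of sterol and fatty acid synthesis 0 were called, while 15 rose and 2 fell by the adjusted p alone, against 20.9% rising and 22.1% falling among expressed genes, with Insig1 and Cyp51 rising by 0.67 and 0.72 on the log2 scale. Of 23 genes of glycolysis and hypoxia, of 16 NRF2 genes and of 15 shared pluripotency genes, 0 were called in either direction. By the adjusted p alone 3, 2 and 4 of them rose and 6, 6 and 5 fell. Of 21 p53 targets 1 was called, and of 20 cell cycle genes 1, Ccnd2, against 7.24% of all genes called either way. Of 21 interferon response and MHC class I genes, 4 were called higher and 1 lower, against 5.59% and 1.65% of all genes, and 7 rose and 10 fell by the adjusted p, against 21.7% and 18.5%. Among those that fell were Ifitm1 and Stat2, by 0.74 and 0.71 on the log2 scale. B2m, the light chain of MHC class I, rose from 12.6 and 11.2 FPKM to 23.9 and 26.1 FPKM. Of 11 DNA methylation enzymes, Dnmt3b alone was called.

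The pair of conditions with inhibitors shares no sample with F and −F, and was used to see whether the same genes differed where feeders were again present on 1 side. Feeders were not the sole difference there, since F2i also had serum and another medium and coating. Of all genes tested, 13.3% were called higher in F2i than in NB2i and 6.01% lower. Of the 855 genes called higher in F, 594 (69.5%) were called higher in F2i and 39 (4.56%) lower, and the 594 are 29.1% of the 2038 called higher in F2i. Of the 252 called lower in F, 60 (23.8%) were called lower in F2i and 42 (16.7%) higher. By class, the shared rises were 218 of the 276 absent genes, 282 of the 417 between the limits and 94 of the 162 expressed ones. Genes absent in NB2i, 348 of the 855, gave 325 of the 594, and being near 0 there they could not be called lower in F2i. Among the 276, 202 were absent in NB2i as well and gave 186 of the 218. Agreement of such genes was thus largely set by the choice of the class, and the classes cannot be compared by it. Of the 118 expressed in both −F and NB2i and called higher in F, 51 were called higher in F2i. Among expressed genes that did not follow, chosen after their values were seen, were Chac1, at 8.49 and 9.26 FPKM in F2i and 33.7 and 30.5 FPKM in NB2i, and Hes1, at 42.2 and 42.4 FPKM in F2i and 51.3 and 55.9 FPKM in NB2i.

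A single chromosome departed from the rest. The median log2 fold change of the 649 genes on chromosome 8 that were expressed in −F was −0.22, while the medians of chromosomes 1 to 7, 9 to 19 and X lay between −0.05 and 0.03. On chromosome 8, 83.1% of genes had a negative value against 51.3% elsewhere, and 57.6% fell by the adjusted p against 20.0% elsewhere. Most of these falls were under 2-fold, as 9 genes of the chromosome were called lower and 7 higher. Genes are not replicates, so no test was made of the median. In windows of 20 Mb from one end of the chromosome to the other, the median was negative in all 7, from −0.17 to −0.25.

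Per library, the departure lay with −F. Over 574 genes of chromosome 8 at 1 FPKM or more in all 8 libraries, the median difference from the mean of the libraries was 0.17 in both −F samples, −0.03 and −0.04 in F, −0.09 and −0.08 in F2i, and −0.03 and −0.05 in NB2i. On chromosomes 1 to 7, 9 to 19 and X no library exceeded −0.06 to 0.05. The genes of chromosome 8 were therefore higher in −F than in the 3 other conditions, 2 of them with feeders and 1 without. The number of copies of the chromosome was not measured in these libraries, and its part in the shift was not tested. The shift bears on single genes there. Cdh1, Marveld3 and Tubb3 lie on chromosome 8 and fell by 0.38, 1.36 and 0.29 on the log2 scale, while Klf2, Junb, Jund and Herpud1 lie on it and rose against its median.

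**Figure D5:**
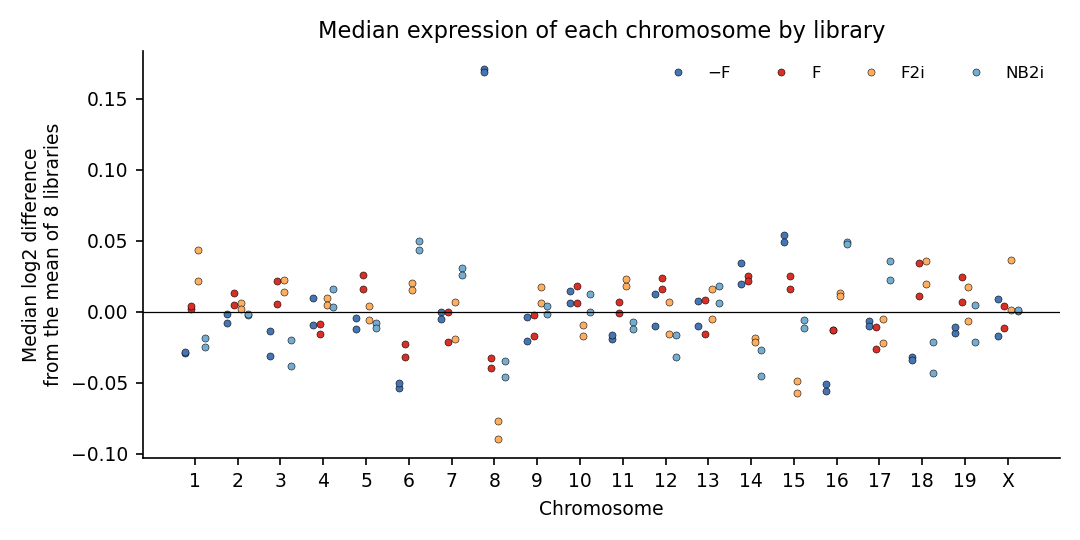
Median log2 difference of the genes of chromosomes 1 to 19 and X (Y, with 4 such genes, is not drawn) from the mean of the 8 libraries, after centring each library on its median over all genes, with 1 point per library and genes at 1 FPKM or more in all 8. Both −F points of chromosome 8 stand at 0.17, apart from the other points drawn, which lie between −0.09 and 0.05.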

How the data were processed

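Poly-A RNA of 8 N33 ESC samples was sequenced. Per the study's methods, the authors aligned clean reads with Bowtie2 against mm10, and RSEM gave the values per gene, for each library on its own. Versions and annotation are not given in the sources used here. The deposited expected count of a gene is RSEM's estimate of its reads, and the deposited FPKM scales that estimate by transcript length and library size. Only genes above 0 are listed, and a missing gene was taken as 0.

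After rounding, the counts entered edgeR 4.0.16 under R 4.3.3 (TMM, glmQLFit, glmQLFTest, Benjamini-Hochberg adjustment) in 1 fit of all 8 samples with the condition as factor and 4 residual degrees of freedom. The SE of a log2 fold change is its size divided by the square root of the quasi-likelihood F. Total counts differed little between samples, and intervals and limits cover counting error only (95%, exact Clopper-Pearson; 3 counts over a group for a count of 0). Chromosomes and starts were taken from RefSeq (GRCm38.p6) by Entrez ID, which matched 20235 of 20278 genes. The steps were tested on simulated data. No replicate pair was as close as counting error alone would give (chi-square divided by its degrees of freedom: −F 3.546, F 2.301).

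Genes named are the 10 largest rises and 10 largest falls among called genes expressed in −F that did not overlap between groups and reached a mean of 5 FPKM in one of them, the 10 called absent genes highest in F, up to 5 members of each of 34 lists with the smallest adjusted p and a mean of at least 1 FPKM, and members needed to describe a pathway. Members of lists named beyond these, and genes named by chromosome, were chosen after their values were seen. Some genes that met the rule are not reported here. The members and lists were chosen with earlier results of these data known. Alternatives were DESeq2 1.42.0, limma 3.58.1 on log2(FPKM + 1) and log2(FPKM + 0.1), other filters, scalings, thresholds and limits of the classes, the replicate number as a block, and each sample left out in turn.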

Additional observations from a re-analysis of the deposited data

How the results depend on the processing

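Leaving out any 1 sample gave 762 to 813 called genes higher with feeders and 190 to 238 lower, 163 to 170 and 106 to 126 of those expressed in −F, 220 to 237 of the absent ones higher, and 203 to 221 higher and 45 to 62 lower of those expressed in NB2i, while 1871 to 1927 were higher and 832 to 932 lower in F2i than in NB2i, and the median of chromosome 8 was −0.23 to −0.21. The correlation of deviations of samples sharing a replicate number was −0.07 to 0.05 over 6 pairs of groups, so the numbers do not pair the samples; with the replicate number as a block 847 genes were higher and 245 lower, against 855 and 252. With at least 10 counts in every sample, which removes genes near 0 in a group by its construction, 306 were higher and 87 lower, 64 of the expressed genes lower, 3 of the absent ones higher, and 951 higher and 562 lower in F2i. With glmTreat, a test against a 2-fold change, 456 were higher and 21 lower, 99 and 17 of the expressed, 172 of the absent, 110 and 9 of those expressed in NB2i, and 1349 and 503 in F2i. With limma on log2(FPKM + 1) the numbers were 280 and 29, 28 lower of the expressed, 52 of the absent, 109 and 20 of those expressed in NB2i, and 703 and 391 in F2i; with log2(FPKM + 0.1), 148 were lower and 158 of the absent higher. DESeq2 called 119 lower. With 2 FPKM as the limit 65 expressed genes were lower, with 5 FPKM 64 were higher and 27 lower, and 68 or 578 absent genes were higher with 0 or under 0.5 FPKM as the limit. The cause of changes with DESeq2 and limma was not tested. The median of chromosome 8 was −0.22 with at least 10 counts in every sample, −0.24 with DESeq2 and with its size factors, −0.21 with TMM from expressed genes, −0.24 with limma on log2(FPKM + 0.1) and −0.23 without a filter. For 179 named genes, 2460 values under alternatives were computed, of which 2329 were counted as unchanged. Another 129 lost the threshold (93 with glmTreat, which asks for more than 2-fold), 2 gained it and 0 were counted as reversed. The unchanged values include those of Neurog1, which did not pass the test and whose log2 fold change ranged from −0.18 to 0.24. Genes with few counts in −F limit the precision of the absent class.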
